A study of Caenorhabditis elegans with 6 samples.

Results

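A set of 7 genes of Caenorhabditis elegans that lie apart from one another had more RNA in early embryos lacking the methyltransferases MET-2 and SET-25: F40D4.13, Y73B3A.13, ZC190.10, C33C12.4, K02H11.9, abt-5 and pde-1. They are 7 of the 20182 genes in the deposited count table, and all 7 passed the filter on low counts that left 13951 genes for testing. ZC190.10 and K02H11.9 passed it only through their met-2 set-25 counts. They were chosen by their gene counts, which were higher in met-2 set-25 embryos than in wild-type embryos, so that contrast is given for them as a description with no test. The cec-4 libraries took no part in that choice as far as the list states it, and cec-4 against wild-type was tested.

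RNA was sequenced after removal of ribosomal RNA from early embryo extracts of 3 genotypes, with 2 independently grown replicates each and 6 libraries in all. The genotypes were wild-type (strain GW1), a single deletion labelled cec-4_delta (GW828) and a double deletion labelled met-2 set-25_delta_delta (GW638), called the double mutant below. Synchronised animals were raised on HB101 bacteria in liquid culture at 20 °C for 60 to 65 h, depending on the strain, and their embryos were released with hypochlorite. Each genotype was a single strain and each library a whole-embryo extract. A different number of cells expressing a gene and a different amount of its RNA per cell therefore cannot be told apart.

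Methylation of histone H3 at lysine 9 (H3K9) marks silent chromatin, and in worm embryos MET-2 deposits the lower methylation states while SET-25 adds the trimethyl state. CEC-4, a chromodomain protein found at the inner nuclear membrane, binds methylated H3K9 and holds such chromatin at the nuclear periphery. The double deletion therefore removes the mark, and the cec-4 deletion removes an anchor that reads it. The chromatin mark itself was not measured in these libraries.

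Library totals ran from 30171874 to 45677214 counts over genes and from 63512536 to 92014755 over consecutive windows of 500 bp. The deleted genes followed their labels: in cec-4 embryos cec-4 stood at 0.321 times its wild-type level, and in the double mutant met-2 stood at 0.201 times and set-25 at 0.246 times. Summed levels of 14 muscle markers, 14 neuronal markers and 12 epidermal markers overlapped between the genotypes. Those of 18 maternal markers ran from 2491 to 3478 CPM in the wild type, overlapping both mutants. They were 3300 and 3688 in cec-4 mutants and 2818 and 2254.0 in the double mutant. Gene by gene, these markers leaned lower in the double mutant than in the wild type. Median log2 differences were −0.29 for muscle, −0.22 for neuronal, −0.23 for epidermal and −0.27 for maternal markers, beside −0.03 over all tested genes. Positive values were found for 4 of 14, 4 of 14, 2 of 9 and 3 of 18 tested markers. edgeR called 0 of them, and their part in the results below was not tested. A set of 6 vitellogenin genes of the adult intestine summed to at most 0.744 CPM. CPM are read counts scaled to library size. Of 29 sperm markers, 20 had no count in any library. The summed level of these sperm markers was 4.68 and 4.80 CPM in the wild type, 4.63 and 4.30 in cec-4 mutants, and 16.3 and 13.05 in the double mutant. Most of that came from spe-6, a kinase gene required for spermatogenesis, at 3.59 and 3.15 CPM in the wild type and 13.8 and 11.5 in the double mutant. The 25 major sperm protein genes together held 1 and 4 counts in the wild-type libraries and 6 and 1 in the double-mutant libraries. Of the sperm markers 3 were tested, and edgeR called 1 higher in the double mutant than in the wild type and 0 lower. Over all tested genes 0.659% were called higher. The median log2 difference of these 3 was 1.91. Against cec-4, 1 was also called higher. The part of sperm markers in the results below was not tested.

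The 7 genes sat on 4 chromosomes. Positions are from the WBcel235 annotation. F40D4.13 (WBGene00009572, chromosome V, 17155874 to 17157254, minus strand), ZC190.10 (WBGene00022544, V, 8692198 to 8696318, minus strand) and K02H11.9 (WBGene00019350, V, 1535224 to 1537079, minus strand) are annotated as protein coding with no named function. C33C12.4 (WBGene00016336, II, 2165440 to 2166476, minus strand) is protein coding and lies opposite an annotated antisense RNA, anr-48. A piRNA locus, 21ur-12557, lies opposite F40D4.13. The sources used here do not say whether counting used strand, so reads of these opposite-strand pairs may be shared. Y73B3A.13 (WBGene00022215, X, 131022 to 132691, plus strand) is annotated as a pseudogene and lies 0.744% of the way along the chromosome.

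The remaining pair have known protein families. The abt-5 gene (WBGene00000023, I, 12011195 to 12018684, plus strand) encodes an ATP-binding cassette transporter of subfamily A, a family of membrane pumps that move lipids in other animals. The pde-1 gene (WBGene00011433, I, 13310887 to 13318716, minus strand) encodes a phosphodiesterase of the calcium and calmodulin dependent type, an enzyme that breaks down cyclic nucleotides. Both lie in the outer part of chromosome I, at 79.7% and 88.3% of its length.

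Isolation was checked by measuring the distance from each gene to the nearest other gene called higher in the double mutant. That distance was 4062 kb for K02H11.9, 2791 kb for ZC190.10 and 1647 kb for Y73B3A.13. It was 199.9 kb for abt-5 and 196 kb for F40D4.13. It was 83.7 kb for pde-1, where the nearest was mihp-1, and 14.5 kb for C33C12.4, where it was C40A11.8. C33C12.4 was thus not isolated on the scale of the other genes.

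F40D4.13 had 55 and 49 counts in the wild-type libraries, 38 and 17 in the cec-4 libraries, and 598 and 890 in the double-mutant libraries. Both double-mutant libraries were far above all others, and both cec-4 libraries lay below both wild-type libraries. Scaled to library size, its level was 1.19 ± 0.0243 CPM in the wild type, 0.680 ± 0.259 in cec-4 and 20.8 ± 1.46 in the double mutant (SD, n = 2 for these and all means below). The double-mutant mean was 17.6 times the wild-type mean.

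Y73B3A.13, the pseudogene, had 85 and 60 counts in the wild type, 75 and 59 in cec-4 mutants, and 648 and 1031 in the double mutant. Here the cec-4 libraries lay within the range of the wild-type libraries in CPM, and the double-mutant libraries stood above both. The means were 1.65 ± 0.303, 1.71 ± 0.0154 and 23.4 ± 2.74 CPM, a ratio of 14.2 between the double mutant and the wild type.

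ZC190.10 was nearly silent without the double deletion, with 9 and 5 counts in the wild type, 2 and 2 in cec-4 mutants, and 66 and 93 in the double mutant. The double-mutant libraries were again the high ones, and the cec-4 libraries were the low ones. Its means were 0.158 ± 0.0549 CPM in the wild type, 0.0519 ± 0.00923 in cec-4 and 2.24 ± 0.0702 in the double mutant, and the last was 14.1 times the first.

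C33C12.4 had 53 and 23 counts in the wild type, 25 and 10 in cec-4 mutants, and 300 and 309 in the double mutant. The wild-type and cec-4 libraries overlapped in CPM, and the wild-type replicates were farther apart than those genotype means. Its means were 0.854 ± 0.432, 0.430 ± 0.195 and 8.77 ± 1.66 CPM, and the double-mutant mean was 10.3 times that of the wild type.

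K02H11.9 had the fewest counts, with 7 and 1 in the wild type, 5 and 2 in cec-4 mutants, and 50 and 71 in the double mutant. Wild-type and cec-4 libraries overlapped, at a depth where a single read moves the value. Its means were 0.0885 ± 0.0915, 0.0860 ± 0.0389 and 1.70 ± 0.0627 CPM, so the ratio of 19.2 between the double mutant and the wild type rests on 8 wild-type counts in all.

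The transporter gene abt-5 was the most counted of the genes, with 399 and 296 counts in the wild type, 291 and 292 in cec-4 mutants, and 1552 and 1957 in the double mutant. Its wild-type and cec-4 libraries interleaved in CPM. The means were 7.90 ± 1.18 CPM in the wild type, 7.57 ± 1.36 in cec-4 and 49.8 ± 2.34 in the double mutant, which was 6.30 times the wild-type mean.

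The phosphodiesterase gene pde-1 had 67 and 81 counts in the wild type, 63 and 83 in cec-4 mutants, and 298 and 385 in the double mutant. As for abt-5, wild-type and cec-4 overlapped while the double mutant stood clear of both. The means were 1.70 ± 0.33, 1.93 ± 0.704 and 9.67 ± 0.289 CPM, and the ratio of the double mutant to wild-type was 5.69.

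**Figure D1:**
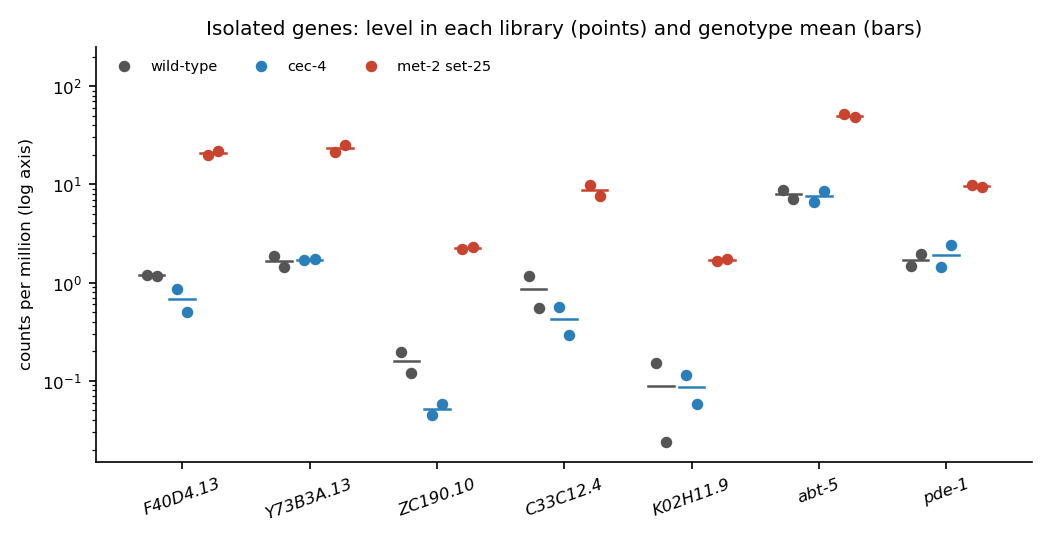
Level of each gene in CPM (vertical log axis) in the 6 libraries: points are single libraries, horizontal bars are genotype means of 2 libraries, and colours mark wild-type, cec-4 and met-2 set-25. For every gene both met-2 set-25 points lie above the 4 others, and the cec-4 points lie clear below the wild-type points only for F40D4.13 and ZC190.10.

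The plot of levels by library shows the same arrangement for all 7 genes, with both double-mutant libraries above both wild-type and both cec-4 libraries. That arrangement is what the genes were listed for. Among all tested genes, 14.5% had both double-mutant libraries above both wild-type libraries and edgeR called 0.659% higher and 0.0287% lower at an adjusted p under 0.05. The 7 genes were all among the called ones, at ranks 9, 11, 14, 15, 23, 42 and 47 by fold change of 92, and nothing is read from that count. The level in the second double-mutant library was between 0.764 and 1.18 times that in the first.

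On the log2 scale the differences between the double mutant and the wild type were 4.131 (SE 0.338) for F40D4.13, 3.83 (SE 0.295) for Y73B3A.13 and 3.79 (SE 0.432) for ZC190.10. They were 3.35 (SE 0.458) for C33C12.4, 4.18 (SE 0.625) for K02H11.9, 2.65 (SE 0.249) for abt-5 and 2.51 (SE 0.353) for pde-1. Leaving out the first or the second wild-type library gave 5.97 or 3.46 for K02H11.9 and 3.99 or 2.93 for C33C12.4. The median over the 7 genes was 3.79, beside −0.03 over all tested genes. The genes of named protein families, abt-5 and pde-1, had the smallest differences of the set.

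Per kilobase of counted length, which allows genes to be compared, the wild-type level was lowest for K02H11.9 at 0.141 CPM per kb and ZC190.10 at 0.396. It was 0.852 for pde-1, 1.16 for F40D4.13, 1.31 for Y73B3A.13, 1.68 for abt-5 and 1.81 for C33C12.4. These levels fell between the 1.66 and the 25.1 percentile of all tested genes, so every gene was among the weakly expressed ones in the wild type. In double-mutant embryos the levels per kilobase were 2.70 for K02H11.9, 4.85 for pde-1, 5.60 for ZC190.10, 10.6 for abt-5, 18.6 for both Y73B3A.13 and C33C12.4, and 20.4 for F40D4.13. The corresponding percentiles ran from 28.7 to 54.1, which is around or below the middle of the tested genes.

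Without the anchor protein CEC-4, 0 of the 7 genes were called in either direction by edgeR's quasi-likelihood test with Benjamini-Hochberg adjustment, and DESeq2 and limma voom also called 0. ZC190.10 and K02H11.9 entered the test only through their double-mutant counts, and were not tested when wild-type and cec-4 were fitted alone. Over all tested genes the same test called 0.00717% higher and 0% lower. Each gene had an adjusted p of 0.9998 in edgeR. The test did not call the deleted gene cec-4 itself, at a log2 difference of −1.64 with an adjusted p of 0.0955 in edgeR, so 0 called does not show that differences of that size are absent. At an unadjusted p under 0.05 in edgeR there were 2 of the 7, beside 131 of all 13951 genes tested, and both were lower in cec-4. These were F40D4.13 and ZC190.10. As ZC190.10 entered the test through its double-mutant counts, nothing is read from this share. The median log2 difference was −0.06, beside −0.02 over all tested genes. Both comparisons with the wild type use the same wild-type libraries.

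The intervals show how far the cec-4 comparison can reach. For abt-5 the log2 difference was −0.06, with a 95% interval from −0.61 to 0.48, and for Y73B3A.13 it was 0.06, with an interval from −0.59 to 0.70. For pde-1 it was 0.18, from −0.63 to 0.98. The upper ends of these intervals are below the smallest log2 difference seen in the double mutant for the set, 2.51 for pde-1. K02H11.9 had too few counts for a narrow interval, at −0.03 from −1.95 to 1.89.

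The remaining members leaned lower in cec-4 without passing the test. For ZC190.10 the log2 difference was −1.58, with a 95% interval from −3.05 to −0.11 and an unadjusted p of 0.0386 in edgeR. For F40D4.13 it was −0.78 (SE 0.342), with an unadjusted p of 0.0498 in edgeR, and for C33C12.4 it was −0.97, with an interval from −2.09 to 0.16. With 1 library left out, the C33C12.4 value ran from −1.54 without the first cec-4 library to −0.32 without the first wild-type library, and the F40D4.13 value from −1.25 to −0.45 without the first and the second cec-4 library. Both cec-4 libraries lay below both wild-type libraries for F40D4.13 and ZC190.10, an arrangement that 10.2% of tested genes showed. The ZC190.10 value rests on 4 counts in cec-4 and 14 in the wild type.

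**Figure D2:**
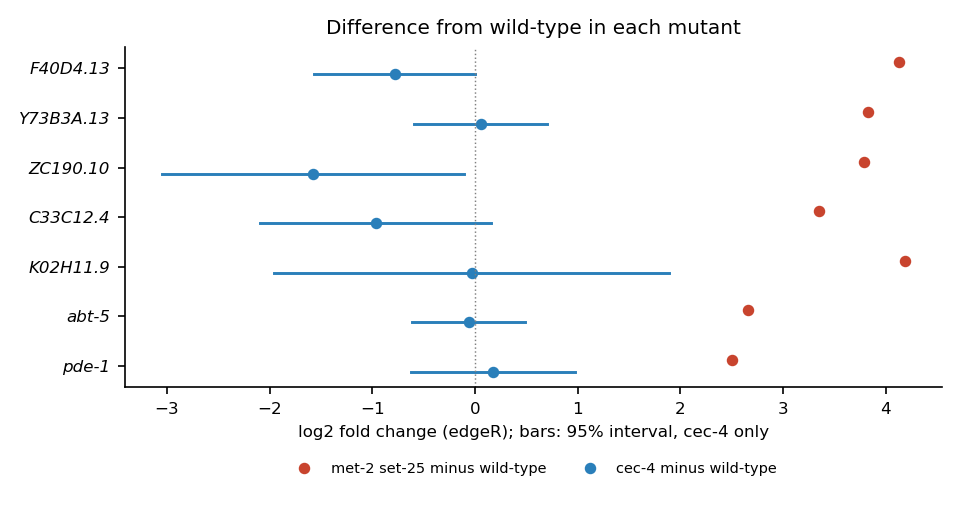
Log2 fold change against wild-type (horizontal axis, edgeR) of each gene in met-2 set-25 (red points, shown without an interval because this contrast chose the genes) and in cec-4 (blue points with 95% intervals). The met-2 set-25 points run from 2.51 to 4.18, while the cec-4 points run from −1.58 to 0.18.

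Set against cec-4 in place of the wild type, the double mutant was higher by 4.91 on the log2 scale for F40D4.13, 3.77 for Y73B3A.13, 5.36 for ZC190.10 and 4.31 for C33C12.4. It was higher by 4.22 for K02H11.9, 2.72 for abt-5 and 2.33 for pde-1. All 7 genes were called higher, where the background was 0.609% of tested genes called higher and 0.0287% lower, and both double-mutant libraries lay above both cec-4 libraries for all 7, as for 23.7% of tested genes. This comparison shares the double-mutant libraries with the one that chose the genes and is given as a description. Maternal markers were also lower in the double mutant than in cec-4, with a median log2 difference of −0.46 and 16 of 18 negative, though edgeR called 0, and their part in these values was not tested.

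How far the difference reached along the chromosome was read from the 500 bp windows over each gene and 10 kb to either side, 338 windows in all. No source used here names the genome build of the windows. The windows were laid on the WBcel235 genes after window sums and gene counts had been compared over 31 to 49 genes around each locus, where Pearson's r across genes at no offset was 0.905 to 0.978. No other offset in steps of 500 bp gave a higher value except 500 bp at ZC190.10, where r was 0.919 against 0.911. Window positions below are as deposited, and the windows of ZC190.10 may be misplaced by 1 step.

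A window was counted as raised where both double-mutant libraries exceeded both wild-type libraries, the difference was at least 2-fold with a prior count of 2, and the double-mutant libraries held at least 10 counts together. Over the whole genome 1.82% of windows met this rule, or 3.24% of those with at least 10 counts. Differences from the wild type given below for raised windows follow from the rule and are descriptions. Within the gene bodies 51 of 58 windows met it, which the choice of genes largely fixed. In the flanks 53 of 280 windows met it, or 18.9%, and another 153 flank windows held too few counts to qualify. Of the windows in gene bodies, 49 of 54 that held exon bases were raised and 2 of 4 without exon bases.

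**Figure D3:**
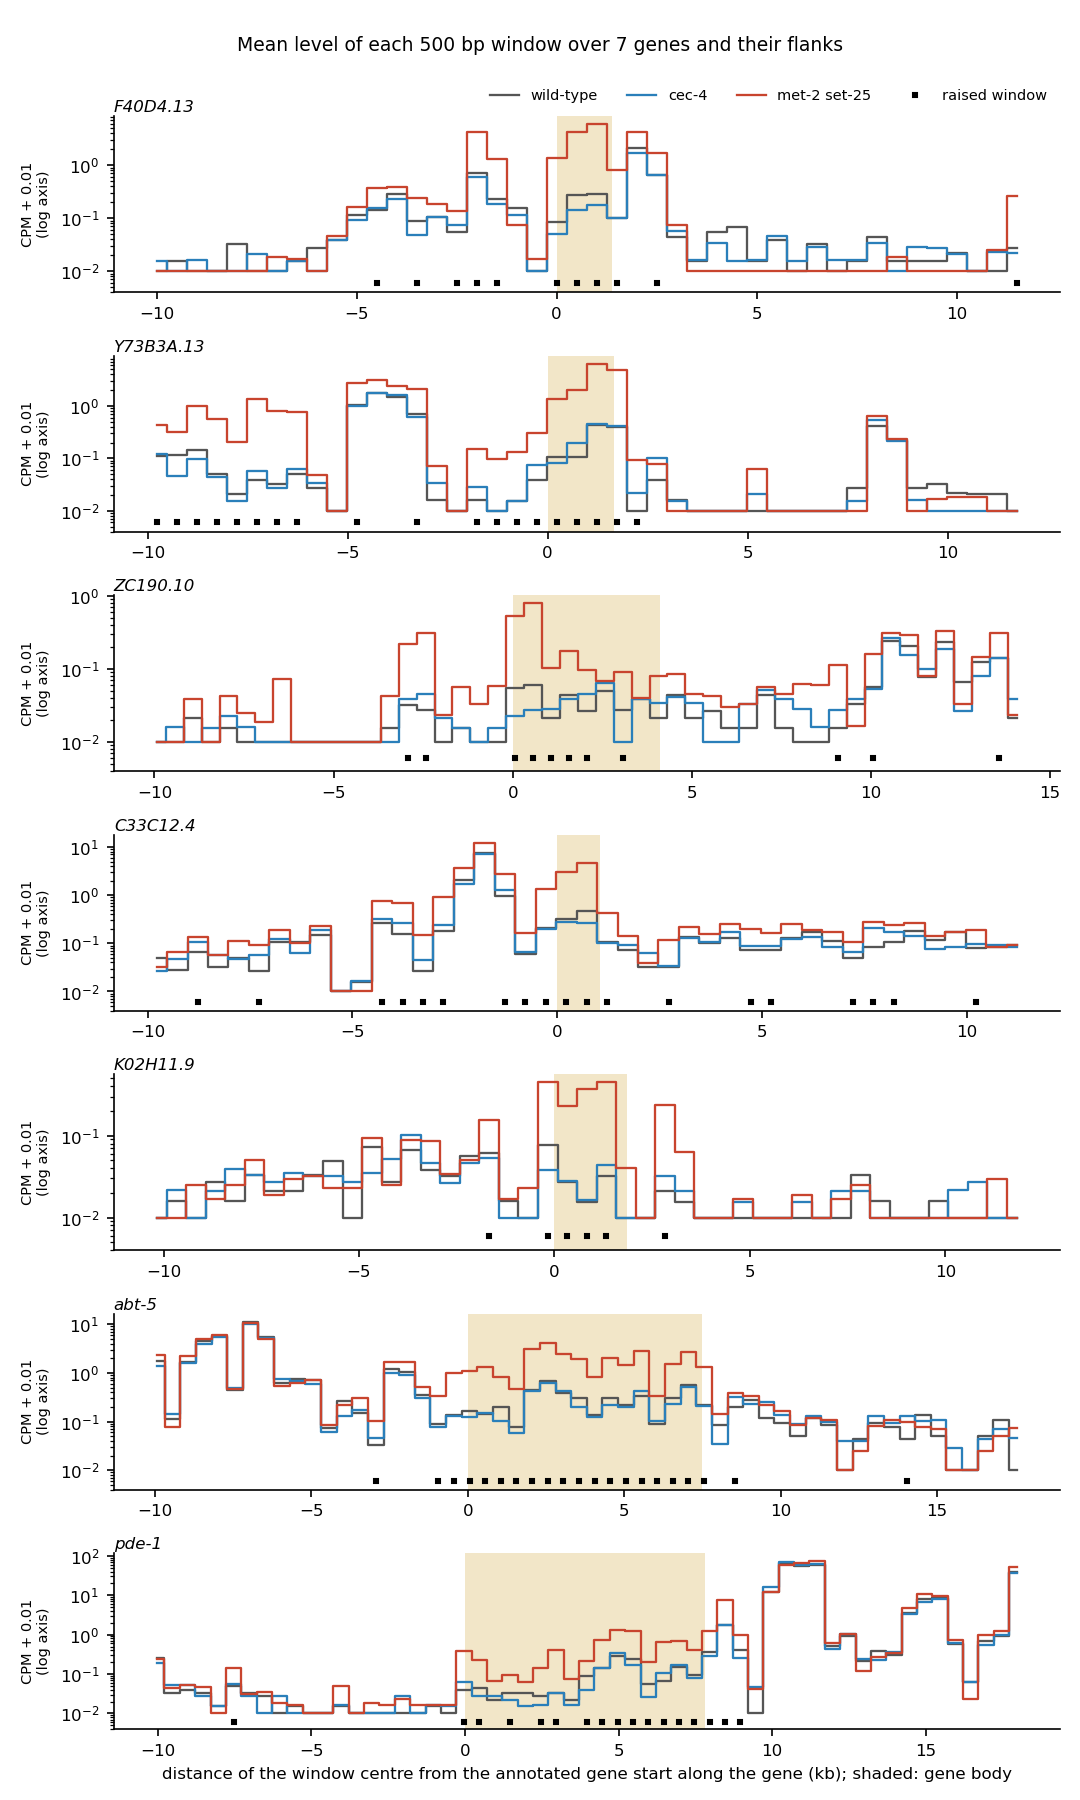
Mean level of each 500 bp window (vertical log axis, CPM plus 0.01) by distance along the gene from its annotated start (kb), with upstream to the left, 1 panel per gene and lines for wild-type, cec-4 and met-2 set-25. Shading marks the gene body and black squares mark raised windows, which fill most of each gene body and appear in 53 flank windows, most densely upstream of Y73B3A.13 and on both sides of C33C12.4.

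Taking the longest run of raised windows that touched each gene, the shortest were those of F40D4.13 and K02H11.9, at 2000 bp, where all or most windows of the gene were raised and the next windows on either side were not. At abt-5 all 16 windows of the gene were raised, by 1.74 to 3.14 on the log2 scale, and the run continued for 2 windows upstream of the annotated start to a length of 9000 bp. Those 2 windows, which hold no annotated gene, had 24 and 12 counts in the wild type, 18 and 14 in cec-4 mutants, and 68 and 107 in the double mutant. Both double-mutant libraries were also above both cec-4 libraries there, which the raised rule does not ask for. Their place above the wild type was fixed by that rule. The mean level was 6.36 times that of the wild type, a description beside the 6.30 of the gene itself.

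At pde-1 14 of 17 gene windows were raised, in 4 runs of which the longest was 5500 bp, and the gaps fell on windows with few exon bases or none. The windows at its 5′ end (13318001 to 13319000 on chromosome I) had 3 and 8 counts in the wild type, 5 and 7 in cec-4 mutants, and 33 and 46 in the double mutant. The higher level in the double mutant was therefore present at the first annotated exons as well as near the 3′ end. Near the 3′ end 1 raised window holds bases of both pde-1 and the next gene, T04D3.8.

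At ZC190.10 6 of 9 gene windows were raised, and most of its double-mutant counts lay at its 5′ end. The window from 8695501 to 8696000 on chromosome V had 5 and 4 counts in the wild type, 2 and 1 in cec-4 mutants, and 42 and 65 in the double mutant. The window that begins at 8696001 had 5 and 3, 0 and 2, and 31 and 40 counts. The 4 windows closest to the 3′ end held at most 6 counts in any library. Further upstream, 2183 bp from the gene, a pair of windows with no annotated gene (8698501 to 8699500) had 2 and 5 counts in the wild type, 7 and 4 in cec-4 mutants, and 26 and 44 in the double mutant, a ratio of means of 12.8.

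Y73B3A.13 had 14 of 20 upstream windows raised, more than any of the other genes, and 1 of 20 downstream. The run touching the gene was 4500 bp long and took in 4 windows directly upstream (129001 to 131000 on X) that hold no annotated gene. They had 3 and 4 counts in the wild type, 8 and 7 in cec-4 mutants, and 43 and 42 in the double mutant, a ratio of 16.2 between the mean levels.

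A separate stretch of 5 windows without an annotated gene (122501 to 125000 on X), 6022 bp upstream of Y73B3A.13, had 14 and 11 counts in the wild type, 19 and 8 in cec-4 mutants, and 199 and 300 in the double mutant. The double-mutant libraries were far above the other 4, which did not separate. Its mean level was 0.142 CPM in the wild type and 3.69 in the double mutant, a ratio of 26.1. The raised rule set the edges of the stretch from these same libraries, so the ratio is not compared with those of whole genes. It adjoins the raised windows of fbxa-16, an F-box gene, and together they made a run of 8 windows with a ratio of 11.1. The windows between this run and the gene were not silent in the wild type: the raised window at 126001 to 126500 had 82 and 98 counts there, and 149 and 211 in the double mutant.

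C33C12.4 had 9 raised windows upstream and 7 downstream. The run touching the gene continued upstream over the antisense RNA anr-48, its last window also holding bases of fbxb-38, an F-box gene, to 3000 bp. A further run of 4 windows lay over C33C12.12, anr-48 and srb-14, a chemoreceptor-family pseudogene in the annotation. This run had 47 and 57 counts in the wild type, 55 and 82 in cec-4 mutants, and 178 and 141 in the double mutant. The ratio of the double-mutant mean to the wild-type mean was 4.16. Downstream the raised windows were low: the largest run, of 3 windows, had 9 and 28 counts in the wild type, 21 and 47 in cec-4 mutants, and 42 and 35 in the double mutant. In CPM the second cec-4 library, at 0.594, lay between the double-mutant libraries at 0.721 and 0.464, so this run did not separate those genotypes.

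F40D4.13 had 5 raised windows upstream and 2 downstream. The largest signal lay 1247 bp upstream at F40D4.16, a non-coding RNA gene outside the count table, where 2 windows had 70 and 91 counts in the wild type, 67 and 61 in cec-4 mutants, and 224 and 552 in the double mutant. The double-mutant libraries were above the rest but differed from each other, at 3.84 and 7.31 CPM. Downstream, 1 window at F40D4.17 had 57 and 58 counts in the wild type and 116 and 106 in the double mutant.

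K02H11.9 had 1 raised window on each side. The downstream window, 724 bp away at trx-5, a thioredoxin-family gene, had 2 and 0 counts in the wild type, 4 and 0 in cec-4 mutants, and 11 and 20 in the double mutant. The abt-5 flanks beyond the gene run held 3 isolated raised windows with at most 27 counts in any double-mutant library. In 2 of the 3 at least 1 cec-4 library was as high as the double mutant: the window at 12025001 had a mean of 0.121 CPM in cec-4 and 0.0873 in the double mutant, and that at 12019501 had 0.417 in the second cec-4 library and 0.395 and 0.358 in the double mutant.

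By annotation, 25 of the 53 raised flank windows held no annotated gene, 17 held a gene of the count table and 11 held only genes outside it. In the windows of cec-4 against the wild type, edgeR called 0 of the 149 that could be tested, where the background was 0.00185%, and 3 had an unadjusted p under 0.05. In the double mutant against the wild type, 45 of these 149 windows were called higher, where the background was 0.446% of tested windows. The 32 in gene bodies were largely fixed by the choice of genes, and 13 were in flanks. Of the 13 in flanks, 7 were upstream of Y73B3A.13, where 13 windows could be tested.

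Neighbouring genes were looked at in the gene table itself. Within 10 kb of the 7 genes there are 49 other annotated genes, of which 27 were in the count table and 14 had enough counts to be tested. The 7 genes were listed as isolated, which made called neighbours in the double mutant unlikely, so those values are a description. In the double mutant against the wild type edgeR called 0 of the 14, beside 0.659% of all tested genes called higher. An unadjusted p under 0.05 in edgeR was found for 5 of the 14, beside 797 of all 13951 genes tested. DESeq2 called 2 of the 14 higher, beside 183 of all genes, and limma voom called 0. The median log2 difference of the 14 was 0.47, beside −0.03 over all tested genes, and 9 of them had both double-mutant libraries above both wild-type libraries, as had 14.5% of all tested genes. A log2 difference of at least 1 was found for 3 of the 14, and for 4.56% of all tested genes. The 5, the 9 and the 3 each include trx-5, which passed the low-count filter only through its double-mutant counts. These shares are therefore a description and are not read as a result. In cec-4 against the wild type edgeR called 0, with 0 at an unadjusted p under 0.05, and DESeq2 and limma voom also called 0. The median there was 0.03.

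The neighbour with the largest difference among those with more than a few wild-type counts was T04D3.8, on the opposite strand, which ends 176 bp from the 3′ end of pde-1. It had 223 and 133 counts in the wild type, 202 and 129 in cec-4 mutants, and 349 and 845 in the double mutant. Both double-mutant libraries were highest but were far apart, at 11.6 and 20.8 CPM, while pde-1 itself stood at 9.87 and 9.46 in the same libraries. The log2 difference from wild-type was 2.0 (SE 0.372), with an adjusted p of 0.0708 in edgeR. The call depended on the setting, as T04D3.8 was called in 4 of the 15 settings run.

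The F-box gene fbxa-16, 8743 bp upstream of Y73B3A.13, had 72 and 54 counts in the wild type, 61 and 53 in cec-4 mutants, and 107 and 214 in the double mutant. Its level was 1.43 ± 0.203 CPM in the wild type and 4.40 ± 1.21 in the double mutant, a log2 difference of 1.62 with an adjusted p of 0.110 in edgeR. It was called in 3 of 15 settings. The thioredoxin gene trx-5, 809 bp downstream of K02H11.9, had 1 and 0 counts in the wild type, 6 and 0 in cec-4 mutants, and 14 and 24 in the double mutant, too few in the wild type for a fold change, and was called in 4 of 14 settings.

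Some neighbours were more strongly expressed and did not pass the test. The gene sdz-30, 2202 bp downstream of pde-1, stood at 380 CPM in the wild type and 389 in the double mutant, a log2 difference of 0.03. The F-box gene fbxb-38, 1215 bp upstream of C33C12.4, stood at 18.7 ± 5.10 CPM in the wild type and 28.5 ± 1.74 in the double mutant, a log2 difference of 0.61. Near abt-5, the log2 differences were 0.16 for Y53C10A.10, −0.08 for Y53C10A.6 and 0.26 for tmem-189.

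The remaining tested neighbours lay between 0.11 and 0.78. They were F40D4.12 at 0.78, cal-6, a calmodulin-related pseudogene in the annotation, at 0.52, and oac-31, of an acyltransferase-like family, at 0.48. The guanylate cyclase gene gcy-35 stood at 0.47, T04D3.1 at 0.27 and cln-3.3 at 0.11. ZC190.8, near ZC190.10, was not tested and had 1 and 0 counts in the wild type and 10 and 7 in the double mutant. Widening the reach to 20 kb added 1 called gene, C40A11.8, with a log2 difference of 3.38.

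**Figure D4:**
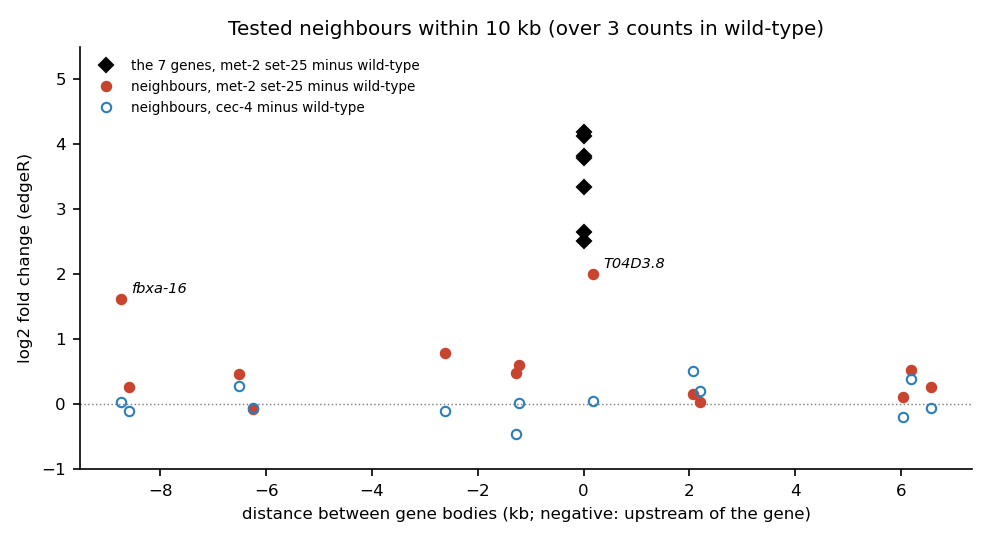
Log2 fold change (vertical axis, edgeR) of the 7 genes (black diamonds at distance 0) and of 13 tested neighbours within 10 kb against distance between gene bodies (kb, negative upstream), in met-2 set-25 (filled) and cec-4 (open) against wild-type; trx-5 is left out because wild-type held 1 count. The 7 genes lie at 2.51 or above, T04D3.8 and fbxa-16 at 2.0 and 1.62, and the other 11 neighbours between −0.08 and 0.78.

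The protein families of abt-5 and pde-1 were read from gene lists. Of 24 genes for subfamily A and half-size ATP-binding cassette transporters, 19 were tested in the double mutant against the wild type. The median log2 difference was −0.05, beside −0.03 over all tested genes. Only abt-5 was called higher, which its choice as a member fixed, and 0 were called lower, beside 0.659% and 0.0287% of all tested genes. Its relatives stood at −0.62 for abt-1, 0.27 for abt-2, −0.38 for abt-4 and −0.12 for ced-7, a gene needed for the engulfment of dying cells. The next largest was wht-5 at 2.36, which had mean levels of 0.0577 CPM in the wild type and 0.305 in the double mutant and did not pass the test.

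All 26 genes for phosphodiesterases and other parts of cyclic nucleotide signalling were tested, with a median of −0.32. Only pde-1 was called higher, which its choice as a member fixed, and 0 were called lower. The other phosphodiesterase genes had log2 differences of −0.04 for pde-2, 0.16 for pde-3, −0.34 for pde-4, −0.42 for pde-5 and −0.33 for pde-6. The channel gene cng-3 stood at −0.88 and kin-2, the regulatory subunit of protein kinase A, at −0.63, and neither passed the test. In cec-4 against the wild type 0 genes of either list were called by edgeR.

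Among all other tested genes, those whose centred log2 profile over the 6 libraries lay closest to the median profile of the 7 were Y105C5B.20, cya-2, Y102A5C.36, F28F8.7 and F07E5.9. Their Euclidean distances were 0.686, 0.744, 0.863, 0.883 and 0.915, while the 7 genes themselves lay between 0.614 for Y73B3A.13 and 1.80 for pde-1. F28F8.7, the most strongly expressed of these, stood at 5.22 ± 0.633 CPM in the wild type, 6.87 ± 1.24 in cec-4 and 69.0 ± 1.15 in the double mutant. Y102A5C.36 stood at 0.464 in the wild type and 8.71 in the double mutant, and Y105C5B.20 at 2.25 and 23.1. The cyclin A family gene cya-2 had 2 and 0 counts in the wild type, 0 and 0 in cec-4 mutants, and 13 and 21 in the double mutant.

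With the first double-mutant library left out, the 7 log2 differences from the wild type ran from 2.48 for pde-1 to 4.23 for K02H11.9. With the second left out they ran from 2.54 for pde-1 to 4.15 for K02H11.9. Fewer members were called in each case, as were fewer of all tested genes. Without the first wild-type library pde-1 stood at 2.32 and was not called. In cec-4 against the wild type 0 of the 7 were called in any setting run, though ZC190.10 and K02H11.9 were not tested with those genotypes alone.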

How the data were processed

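The values used are the authors' deposited read counts, with no normalization, over 20182 genes and 200566 consecutive windows of 500 bp. A deposited table of normalized gene values was not used here. Per the labels' protocols, 5 µg of total RNA was depleted of ribosomal RNA with a Ribo-Zero kit, 50 ng entered ScriptSeq v2 library preparation, and libraries were run 3 to a pool on a HiSeq 2500 for 51 cycles. Neither the aligner nor the counter, the build or the strand setting is stated in the labels or headers (not given in the sources used here). Deposited widths were multiples of 3 for 96.63% of genes and so are mostly coding lengths.

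Samples were grouped by the genotype in their titles. Genes and windows were tested over whole tables with edgeR 4.0.16 in R 4.3.3 (filterByExpr by genotype, TMM scaling, quasi-likelihood test, all 6 libraries in 1 fit, Benjamini-Hochberg adjustment, threshold 0.05), which left 13951 genes and 108036 windows. The biological coefficient of variation was 21.7%. Each SE was taken as the size of the log2 fold change over the square root of its F statistic. CPM uses TMM-scaled library sizes. Low counts limit the precision of single values, and reads carry no molecular identifiers. Alternatives used DESeq2 1.42.0, limma 3.58.1 voom, other scalings and filters, a replicate block and each library left out in turn. The steps were tested on simulated data.

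Genes named are the 7 members, annotated genes within 10 kb, the deleted genes, the 5 genes closest in profile and up to 4 genes of smallest p from each list. The members and lists were chosen with earlier results of these data known. The other ATP-binding cassette and phosphodiesterase genes, the nearest called genes, spe-6 and C40A11.8 were named after their values were seen. Gene names came from the WBcel235 annotation, and those of Y73B3A.13 and cal-6 from a RefSeq entry at the same position of that assembly.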

Additional observations from a re-analysis of the deposited data

How the results depend on the processing

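In the double mutant against the wild type, 7 members were called under every other scaling, filter and tool tried. The choice of members in this contrast largely fixed that count, so nothing is read from it. An adjusted p under 0.01 left 3. With 1 library left out the log2 differences ran from 2.32 for pde-1 to 5.97 for K02H11.9, both without wild-type replicate 1. In the double mutant against cec-4, which shares the double-mutant libraries, 7 were called and an adjusted p under 0.01 left 4. With 1 library left out those differences ran from 1.99 for pde-1 to 5.52 for ZC190.10. In both comparisons fewer members were called without either double-mutant library, as were fewer of all tested genes. Against cec-4 the same held without either cec-4 library. A lone library left in a genotype is assumed to vary like the others. In cec-4 against wild-type, 0 members and 0 nearby windows were called in any alternative run. Uncalled differences there changed sign on the log2 scale for K02H11.9 (0.32 with limma voom, 0.33 without cec-4 replicate 2 and 1.76 without wild-type replicate 1, in a range of −0.75 to 1.76 with 1 library left out), abt-5 (0.11 without cec-4 replicate 1 and 0.10 without wild-type replicate 1, range −0.24 to 0.11), pde-1 (−0.23 without cec-4 replicate 2 and −0.01 without wild-type replicate 1, range −0.23 to 0.52) and Y73B3A.13 (−0.11 without wild-type replicate 2, range −0.11 to 0.26). The cause was not tested. Raised windows numbered 61 where at least 4-fold was asked, since that rule is stricter. The neighbouring genes called in the double mutant against the wild type went from 0 to 1 with a reach of 20 kb. In alternatives chosen after seeing the data they numbered 2 with DESeq2, 3 with no low-count filter, 1 with only the genotypes compared, and 0 to 2 with 1 library left out (1 without cec-4 replicate 1, 2 without cec-4 replicate 2). The cause was not tested.

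With the replicate number as a block, 7 members were called in the double mutant against either other genotype and 0 in cec-4 against wild-type, 2 neighbouring genes (fbxa-16 and T04D3.8) were called, and calls over all genes in the double mutant against the wild type went from 92 higher and 4 lower to 183 and 8. They were 183 and 13 with DESeq2 and 193 and 10 with no filter. Deviations of same-numbered samples correlated at 0.531, 0.295 and 0.190, but the labels do not say what same-numbered samples share, and with 2 numbers the correlations cannot settle whether the numbers pair the samples. Of 292 values of single members under alternatives, 258 kept direction and side of the threshold, 26 lost the call and 8 changed sign. Fewer than 15 wild-type counts behind ZC190.10 and K02H11.9 limit what can be said of them in cec-4.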
